A study of Mus musculus with 14 samples.

Results

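The genes described here are 36 symbols of the response to low oxygen and of glycolysis, read in whole mouse kidneys 5 h after sham surgery or ischemia-reperfusion (IR) injury. They were chosen by symbol: the subunits of the hypoxia-inducible factor (HIF) and the enzymes that sense oxygen, the steps from glucose uptake to lactate, and known targets of HIF. Earlier results of these data were known at that choice, so shares of members set beside all genes are descriptive. The symbols match 37 of the 23286 genes in the tables, because Eno1 is given to 2 gene identifiers, and all 37 passed the filter on low values in every comparison. Bulk RNA-seq was made from 12 libraries of 9-week-old mice with 3 libraries for each pairing of surgery (sham or IR) and genotype (Control or VE-PTPiKO), which makes 4 groups. The label VE-PTPiKO stands for targeting of VE-PTP, an endothelial phosphatase that is encoded by Ptprb and acts on the receptor Tie2. The driver and alleles behind VE-PTPiKO, the genotype of the controls beyond that name, and the length of ischemia in these kidneys are not given in the sources used here. The labels do not say that the libraries of a group came from separate animals, so p-values here rest on the spread between libraries, which may be technical. Another 2 samples of the series, single cells from a later time, were not analysed here.

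HIF is a pair of proteins, an alpha subunit (Hif1a, Epas1 or Hif3a) and the beta subunit Arnt. When oxygen is plentiful, the prolyl hydroxylases encoded by Egln1, Egln2 and Egln3 mark the alpha subunit, and the ubiquitin ligase component Vhl then directs its destruction. When oxygen falls the alpha subunit is spared, pairs with Arnt and binds short elements with the core letters ACGTG or GCGTG beside genes of glucose uptake, glycolysis and survival. In the kidney, proximal tubules rely mainly on oxidative metabolism, and interstitial fibroblast-like cells make erythropoietin (Epo) when oxygen is low.

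Ptprb, the targeted gene, stood at 3061, 4363 and 3269 normalized reads in sham kidneys of Control mice against 2068, 2852 and 3049 in those of VE-PTPiKO mice, and after IR at 2040, 2156 and 2721 against 1314, 1677 and 2114. Its sham groups do not overlap and its IR groups do. Normalized reads here are the whole reads recovered from the deposited values, put on 1 scale over the 12 libraries. Library totals ran from 15427887 to 21296392 reads in genes. The share of Malat1, a nuclear RNA used here as a mark of library quality, was 1.96% in VE-PTPiKO IR replicate 3, 1.15% in VE-PTPiKO sham replicate 2 and 1.02% in Control sham replicate 2, against 0.327% to 0.564% in the other 9 libraries. Kidney identity was plain: 10 proximal tubule genes summed to between 316944 and 463027 normalized reads per library, against at most 40.4 for 8 skeletal muscle genes.

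Promoter windows show where the HIF core letters lie beside members that rose, fell or were not called. RefSeq (GRCm38.p6) windows of 250 bases before to 50 after a gene's start were at hand for 32 of the 36 symbols, 47 windows in all. Capitals mark ACGTG or GCGTG on either strand, so that CACGT and CACGC are the same letters read on the other strand and CACGTG holds ACGTG on both strands. The first 3 sequences belong to the 3 members that rose most in Control kidneys, P4ha1 rose less, Pdk1 fell, and Ldha, which was not called in either genotype, has the most matches.
Slc2a1, chr4:119108495-119108794, plus strand: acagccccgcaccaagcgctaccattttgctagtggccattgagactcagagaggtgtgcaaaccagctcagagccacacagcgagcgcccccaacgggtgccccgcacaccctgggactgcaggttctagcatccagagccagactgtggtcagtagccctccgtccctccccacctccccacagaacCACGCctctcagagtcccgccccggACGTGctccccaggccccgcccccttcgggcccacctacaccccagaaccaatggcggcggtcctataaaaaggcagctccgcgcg
Hk2, chr6:82774405-82774704, minus strand: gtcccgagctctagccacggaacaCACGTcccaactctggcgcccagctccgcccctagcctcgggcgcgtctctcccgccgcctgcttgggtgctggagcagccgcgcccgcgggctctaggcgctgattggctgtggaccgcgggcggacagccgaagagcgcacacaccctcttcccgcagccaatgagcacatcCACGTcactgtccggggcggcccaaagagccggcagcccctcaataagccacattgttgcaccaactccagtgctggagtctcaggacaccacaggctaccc
Adm, chr7:110627407-110627706, plus strand: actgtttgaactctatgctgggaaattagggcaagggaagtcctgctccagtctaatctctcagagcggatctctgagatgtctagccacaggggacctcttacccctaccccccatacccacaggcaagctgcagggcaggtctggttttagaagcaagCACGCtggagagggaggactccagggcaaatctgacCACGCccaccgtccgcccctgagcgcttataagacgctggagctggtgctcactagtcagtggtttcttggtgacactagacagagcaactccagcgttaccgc
P4ha1, chr10:59323046-59323345, plus strand: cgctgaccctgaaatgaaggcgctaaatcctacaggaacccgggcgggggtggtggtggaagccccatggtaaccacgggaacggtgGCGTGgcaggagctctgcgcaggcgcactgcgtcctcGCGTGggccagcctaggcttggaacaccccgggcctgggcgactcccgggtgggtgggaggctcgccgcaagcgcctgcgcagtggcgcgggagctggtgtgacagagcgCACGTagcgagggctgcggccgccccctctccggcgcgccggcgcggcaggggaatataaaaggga
Pdk1, chr2:71872974-71873273, plus strand: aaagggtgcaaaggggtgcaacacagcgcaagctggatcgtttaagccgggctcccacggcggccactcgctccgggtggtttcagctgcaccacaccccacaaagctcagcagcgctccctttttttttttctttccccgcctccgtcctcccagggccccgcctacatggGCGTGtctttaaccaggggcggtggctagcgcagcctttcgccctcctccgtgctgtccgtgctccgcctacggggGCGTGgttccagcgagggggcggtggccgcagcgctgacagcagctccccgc
Ldha, chr7:46845554-46845853, plus strand: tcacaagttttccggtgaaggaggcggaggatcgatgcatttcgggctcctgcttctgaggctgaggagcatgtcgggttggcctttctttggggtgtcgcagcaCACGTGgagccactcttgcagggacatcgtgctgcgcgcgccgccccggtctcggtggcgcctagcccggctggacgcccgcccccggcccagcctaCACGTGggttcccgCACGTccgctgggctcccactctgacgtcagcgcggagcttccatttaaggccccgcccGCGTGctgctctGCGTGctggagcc
Either word was found in the windows of 29 of the 32 genes (90.6%), against 46.73% of 27025 genes with windows of the same size, and ACGTG alone in 20 of 32 (62.5%) against 21.78%. Counted by window, either word stood in 37 of 47 (78.7%) against 43.77% of 32851 windows, and ACGTG in 23 (48.9%) against 19.62%. No match lay in the windows of Gpi1, Tpi1 and Vhl, and the Ldha window printed above holds 5 ACGTG and 2 GCGTG matches. Such letters are a description of the sequence and do not show that HIF binds there. Members were chosen partly as known targets of HIF, so their larger share is no separate evidence about them. The windows of all genes were not matched to theirs for base content.

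Among the members, levels per transcript length spanned about 3 orders of magnitude. On the RPKM scale (reads scaled by exon length and library total, mean of 12 libraries) Ndrg1, a stress and differentiation gene, stood highest at 541, followed by the glycolytic enzymes Aldoa at 327, Tpi1 at 218 and Ldha at 157. The median of 16332 genes on that scale was 3.389. Hif1a stood at 45.4, above the other alpha subunits Epas1 at 24.5 and Hif3a at 0.716. Glucose transporter Slc2a1 lay at 22.6 and Slc2a3 at 0.411, the lowest of the 37 genes. Of the hexokinases, which trap glucose in the cell, Hk1 lay at 16.8 and Hk2 at 1.07. Gapdh, often used as a reference gene, was listed at only 1.84, and Pgam1 at 4.92. For several enzymes part of the transcript also occurs elsewhere in the annotation: the share of a gene's 50-base words that another gene holds was 68% for Pgk1, 59.1% for Bnip3, 58.4% for Gapdh (in 222 other genes, 213 of them pseudogenes), 49.5% for Eno1 and 41.5% for Pgam1. Such genes are uncertain in level, since the treatment of shared reads in the counting is not given in these sources. In 15 of the 37 genes no word was shared, among them Hk2, Adm, P4ha1, Pdk1 and Egln3. The shares were 1.56% for Slc2a1, 6.26% for Hif1a, 6.8% for Epo and 24.4% for Bnip3l, the last with a pseudogene. For Ndrg1 the share was 12.3%. Antisense genes overlap Slc2a1, Hk2, Adm, Hif1a, Epo, Ndrg1, Bnip3, Hk1 and Pfkfb3, among others. Without the strand setting of the counting their reads cannot be told apart.

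**Figure D1:**
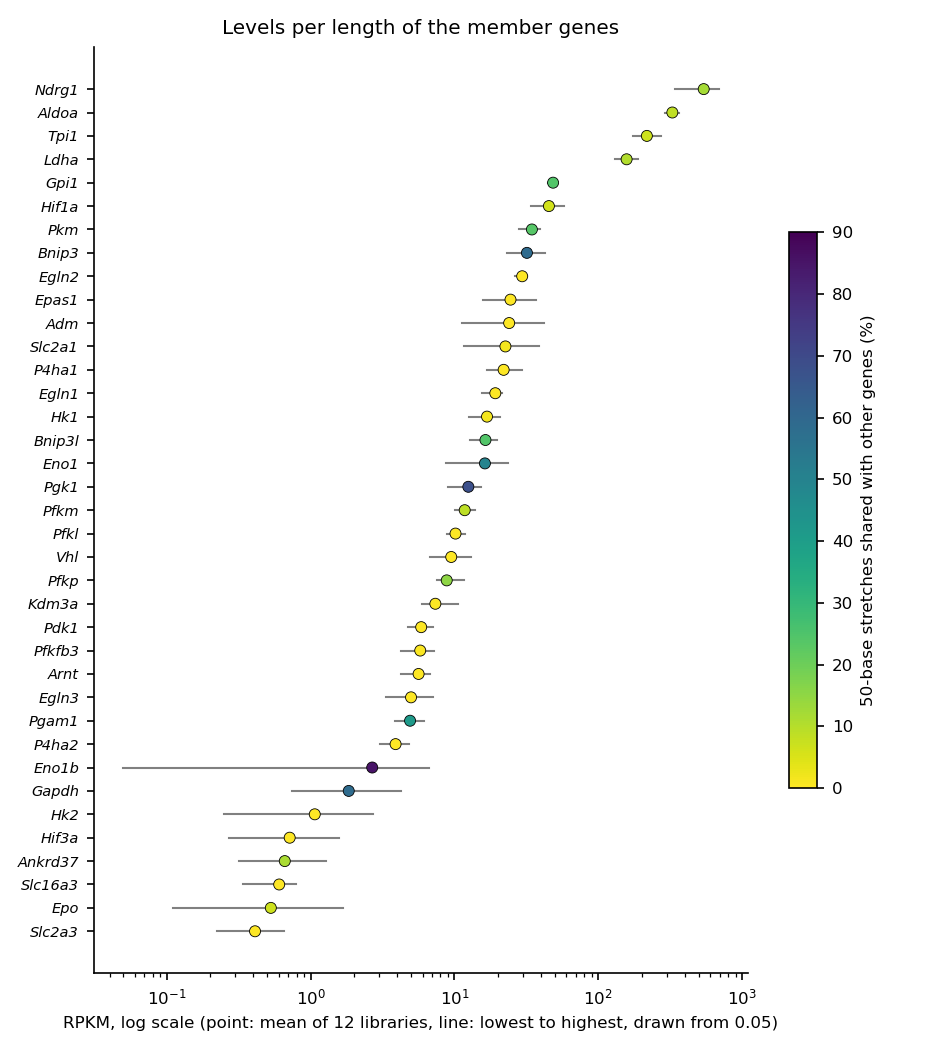
Level of each member on a log RPKM axis, with a line from the lowest to the highest of the 12 libraries and a point at their mean, in order of the mean and coloured by the share of 50-base words found in other genes. Ndrg1 has the highest mean at 541 and Slc2a3 the lowest at 0.411; the lowest Eno1b value is 0 and is drawn at 0.05.

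IR in Control kidneys raised 5 members and lowered 3, with no direction common to the whole list. Slc2a1, Hk2, the vasodilator peptide gene Adm, the collagen prolyl hydroxylase P4ha1 and Hif1a rose, while the pyruvate dehydrogenase kinase Pdk1, the mitophagy receptor Bnip3l and Epo fell. These 8 calls are 21.6% of the 37 members, beside 11.5% of the 16257 genes tested (limma on log2(value + 1), Benjamini-Hochberg adjusted p under 0.05), with 7.48% of all genes higher and 4.02% lower. The median log2 difference of the members was -0.02, beside -0.01 over all genes, and the median size of the difference was 0.25, beside 0.24. IR and sham groups did not overlap for 13 members (35.1%), against 29.5% of all genes.

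In VE-PTPiKO kidneys IR raised Slc2a1 and Adm, and no member was called lower. That is 2 of 37 members (5.41%), beside 2.71% of 16401 genes, 1.92% of them higher and 0.793% lower. The median log2 difference was -0.02, beside -0.01 over all genes, and the median size 0.28, beside 0.24. Again 13 members (35.1%) had groups that do not overlap, against 20.7% of all genes. Both genotypes shared the sign for 26 of 37 members (70.3%), against 73.5% of 16021 genes. All 8 members called in Control had the same sign in VE-PTPiKO, as did 98.6% of the 1868 genes called in Control and tested in both. Groups did not overlap, in the same direction in both genotypes, for 9 members (24.3%), against 12.9% of 16021 genes: Hk2, Slc2a1, Pkm, Adm and Hif1a were higher after IR, and Pfkl, Ndrg1, Egln3 and Pdk1 lower.

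**Figure D2:**
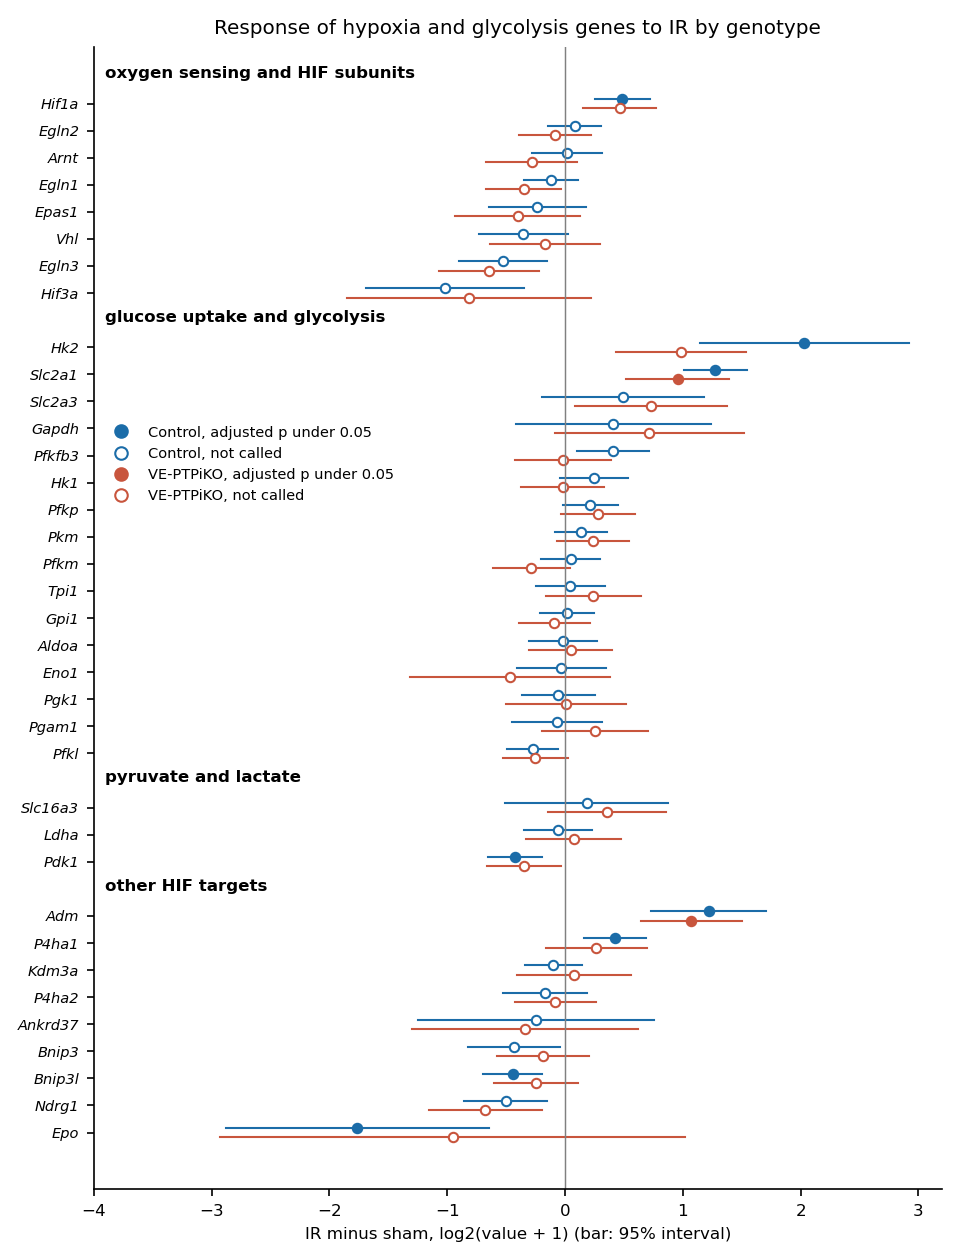
Difference of IR from sham on the log2(value + 1) scale for each member by role, with its 95% interval, in Control (blue) and VE-PTPiKO (red); filled points have an adjusted p under 0.05. Hk2, Slc2a1 and Adm lie farthest to the right in Control and Epo farthest to the left, and most of the glycolytic enzymes lie near 0; Eno1b, whose intervals are wider than the axis, is not drawn.

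Of the 8 genes of oxygen sensing and HIF itself, only Hif1a was called, and only in Control by this test. Hif1a (chr12:73901375-73947530 in GRCm38, as for all gene positions here) stood at 3686, 4012 and 4272 normalized reads with sham and 5174, 5757 and 5808 with IR in Control, and 3942, 3856 and 4059 with sham and 5950.2, 5763 and 4704 with IR in VE-PTPiKO. Every IR library of each genotype lay above every sham library. The group means were 3989.9 ± 294, 5579.7 ± 352, 3952 ± 102 and 5472 ± 672 (SD, n = 3), in the same order. The log2 difference was 0.49 ± 0.11 (SE) in Control (1.4-fold, limma adjusted p = 0.0129) and 0.46 ± 0.14 (SE) in VE-PTPiKO (adjusted p = 0.134). Without Control IR replicate 2 or Control IR replicate 3 the Control call was lost, with adjusted p up to 0.0886. In VE-PTPiKO, DESeq2 called it higher, and leaving out VE-PTPiKO IR replicate 3, its lowest IR library, gave a call as well.

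Epas1, the alpha subunit found mainly in endothelium and interstitial cells of the kidney, stood at 2240.3, 3655 and 2049.7 normalized reads with sham and 2006, 2234 and 2280.1 with IR in Control, and 2211, 2924 and 3223 with sham and 1552, 1993 and 2903 with IR in VE-PTPiKO. Its groups overlap in both genotypes, and the highest value was that of Control sham replicate 2, a library with a high Malat1 share. Without VE-PTPiKO IR replicate 3, Epas1 was called lower in VE-PTPiKO (adjusted p = 0.0447). Hif3a, which can act as an inhibitor of the other subunits, stood at 68.6, 130.2 and 72.4 normalized reads with sham and 33.1, 56.9 and 39.7 with IR in Control, and 64.5, 185 and 148 with sham and 49.9, 51.1 and 125 with IR in VE-PTPiKO. In Control its IR libraries all lay below its sham libraries, with a log2 difference of -1.02 ± 0.30 (SE) that missed the threshold (adjusted p = 0.0545). It was called lower by DESeq2 (adjusted p = 0.0144), with a replicate block (0.0206) and after a correction for transcript length (0.0262). In VE-PTPiKO the groups overlap (log2 difference -0.81, adjusted p = 0.457). Arnt stood at 772, 929.6 and 689 normalized reads with sham and 719.8, 864 and 813 with IR in Control, and 772, 948 and 925 with sham and 706, 603 and 882 with IR in VE-PTPiKO, with overlapping groups in both genotypes.

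None of the 3 prolyl hydroxylase genes was called by limma. Egln3 stood at 247, 235 and 309 normalized reads with sham and 161, 176 and 209.9 with IR in Control, and 324, 247 and 353 with sham and 178, 218 and 189.6 with IR in VE-PTPiKO, with every IR library below every sham library in both genotypes. The log2 difference was -0.52 ± 0.17 (SE) in Control (adjusted p = 0.0727) and -0.65 ± 0.19 (SE) in VE-PTPiKO (adjusted p = 0.13), neither past the threshold, although DESeq2 called both lower (adjusted p = 0.0461 and 0.0371). Egln1, the main oxygen sensor in most tissues, stood at 1378, 1264 and 1245 normalized reads with sham and 1269, 1156 and 1149 with IR in Control, and 1354, 1334 and 1404 with sham and 979.6, 988 and 1258 with IR in VE-PTPiKO. Its Control groups overlap and its VE-PTPiKO groups do not, at log2 differences of -0.12 (adjusted p = 0.557) and -0.35 (adjusted p = 0.271), and without VE-PTPiKO IR replicate 3 the latter was called (adjusted p = 0.028). Egln2 stood at 1540.0, 1447 and 1364 normalized reads with sham and 1621, 1507 and 1465 with IR in Control, and 1583, 1369 and 1551 with sham and 1506, 1473 and 1269.7 with IR in VE-PTPiKO, with overlapping groups and log2 differences of 0.08 and -0.08. Vhl stood at 564, 452 and 718 normalized reads with sham and 441, 497 and 396 with IR in Control, and 555, 494 and 538 with sham and 589, 512 and 341 with IR in VE-PTPiKO, and its log2 differences were -0.35 (adjusted p = 0.24) and -0.17 (adjusted p = 0.774). It was called lower in Control without sham replicate 2 (adjusted p = 0.0498).

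**Figure D3:**
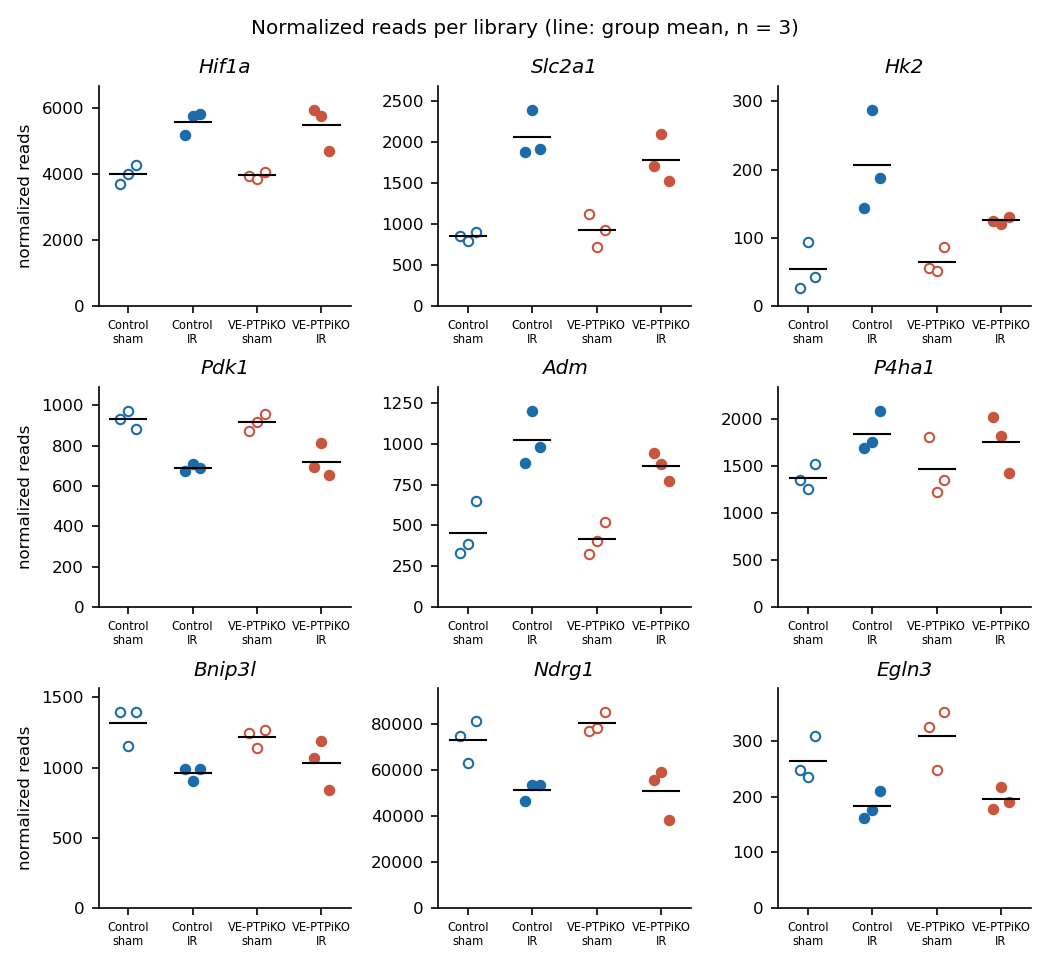
Normalized reads of 9 members in each of the 12 libraries, on linear axes from 0, with sham as open and IR as filled points and a line at each group mean (n = 3). IR points lie above all sham points in both genotypes for Hif1a, Slc2a1, Hk2 and Adm and below them for Pdk1, Ndrg1 and Egln3, while P4ha1 and Bnip3l separate in Control but overlap in VE-PTPiKO.

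Of the 17 genes of glucose uptake and glycolysis, Slc2a1 and Hk2 rose in Control, Slc2a1 rose in VE-PTPiKO, and the others were not called. Slc2a1 (chr4:119108711-119137983), which encodes the glucose transporter GLUT1, stood at 858, 795 and 903 normalized reads with sham and 1885, 2399 and 1914 with IR in Control, and 1119.5, 722 and 928 with sham and 1705, 2104 and 1522 with IR in VE-PTPiKO. All IR libraries lay above all sham libraries. It rose 2.42-fold in Control (log2 1.27 ± 0.12 (SE), adjusted p = 9.25e-05) and 1.94-fold in VE-PTPiKO (log2 0.96 ± 0.19 (SE), adjusted p = 0.0359). The Control call was kept in all 17 alternatives, whereas the VE-PTPiKO call was lost without sham replicate 2, sham replicate 3, IR replicate 1 or IR replicate 2, with adjusted p up to 0.162. Slc2a3, another glucose transporter, was scarce at 29.1 to 83.6 normalized reads, with log2 differences of 0.49 (adjusted p = 0.387) and 0.73 (adjusted p = 0.26).

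Hk2 (chr6:82725025-82774454), the inducible hexokinase, stood at 27, 94.4 and 42.6 normalized reads with sham and 143, 288 and 188 with IR in Control, and 55.4, 51.7 and 86.9 with sham and 125, 121 and 131 with IR in VE-PTPiKO. IR libraries lay above sham libraries in each genotype, and the 3 VE-PTPiKO IR values all lay below the 3 Control IR values. Group means were 54.6 ± 35.3, 206 ± 74.2, 64.7 ± 19.4 and 125 ± 5.05 (SD, n = 3). It rose 4.09-fold in Control (log2 2.03 ± 0.40 (SE), adjusted p = 0.00794) and kept that call in all 17 alternatives. In VE-PTPiKO the log2 difference was 0.98 ± 0.24 (SE) and missed the threshold (adjusted p = 0.0794), while DESeq2 called it higher (adjusted p = 0.0132). The more abundant Hk1 was at log2 differences of 0.25 and -0.02, with adjusted p = 0.286 and 0.975.

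Past the hexokinase step no member of the glycolysis group was called in either genotype. Pfkfb3, which makes the activator of phosphofructokinase, was at a log2 difference of 0.41 ± 0.14 (SE) in Control (adjusted p = 0.0889) and -0.02 ± 0.18 (SE) in VE-PTPiKO (adjusted p = 0.981). Without Control sham replicate 2 the Control difference was called (adjusted p = 0.0306). Of the phosphofructokinase subunits, Pfkl lay lower in every IR library of both genotypes without passing the test (-0.28 and -0.25, adjusted p = 0.109 and 0.38), Pfkp was at 0.21 and 0.28, and Pfkm at 0.05 and -0.28. Enzymes in the middle of the pathway were not called, and their Control differences were near 0: Gpi1 at 0.02 (95% interval -0.21 to 0.24), Aldoa at -0.02 (-0.31 to 0.27), Tpi1 at 0.05 (-0.25 to 0.34), Pgk1 at -0.06 (-0.37 to 0.25) and Pgam1 at -0.07 (-0.45 to 0.32). In VE-PTPiKO the differences were -0.09 (-0.39 to 0.21) for Gpi1, 0.05 (-0.31 to 0.40) for Aldoa, 0.24 (-0.16 to 0.64) for Tpi1, 0.01 (-0.50 to 0.52) for Pgk1 and 0.25 (-0.19 to 0.70) for Pgam1. Pkm, the last enzyme before pyruvate, lay higher in every IR library of each genotype at 0.14 and 0.24 (adjusted p = 0.477 and 0.456).

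Within the groups Gapdh followed the Malat1 share. It stood at 76.4, 188 and 56.4 normalized reads with sham and 95, 132 and 153 with IR in Control, and 80.3, 154 and 100.4 with sham and 152, 123 and 298 with IR in VE-PTPiKO. In each of the 4 groups the library with the highest Malat1 share was also the highest in Gapdh, and the single highest value of Gapdh was in VE-PTPiKO IR replicate 3. The log2 difference was 0.41 ± 0.38 (SE) in Control (adjusted p = 0.576) and 0.72 ± 0.35 (SE) in VE-PTPiKO (adjusted p = 0.391). Without Control sham replicate 2 it was called higher in Control (0.91, adjusted p = 0.0453).

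The 2 genes that carry the symbol Eno1 had opposite patterns over the libraries. The first, Eno1 itself (chr4:150236721-150248879), encodes enolase 1, and the second is also listed as Eno1b, a retrotransposed copy. Of Eno1's 50-base words 48.4% occur in Eno1b, and 76.4% of Eno1b's occur in Eno1. Eno1 stood at 1589, 1568 and 2198 normalized reads with sham and 1463, 1607 and 2173 with IR in Control, and 953, 1478 and 2308 with sham and 848, 1826 and 790.1 with IR in VE-PTPiKO. Eno1b stood at 95.5, 97.8 and 0 normalized reads with sham and 125, 119 and 1.89 with IR in Control, and 221, 74.3 and 1.04 with sham and 164, 1.09 and 163 with IR in VE-PTPiKO. In the 4 libraries where Eno1b was at or under 1.89, Eno1 was between 1826 and 2308. Where Eno1b was highest, at 163 to 221 in 3 VE-PTPiKO libraries, Eno1 was lowest, at 790.1 to 953. The log2 difference of Eno1 was -0.03 in Control (adjusted p = 0.944) and -0.47 in VE-PTPiKO (adjusted p = 0.626), and that of Eno1b had intervals of -3.14 to 4.61 and -4.21 to 4.71. How reads were divided between them was not tested.

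**Figure D4:**
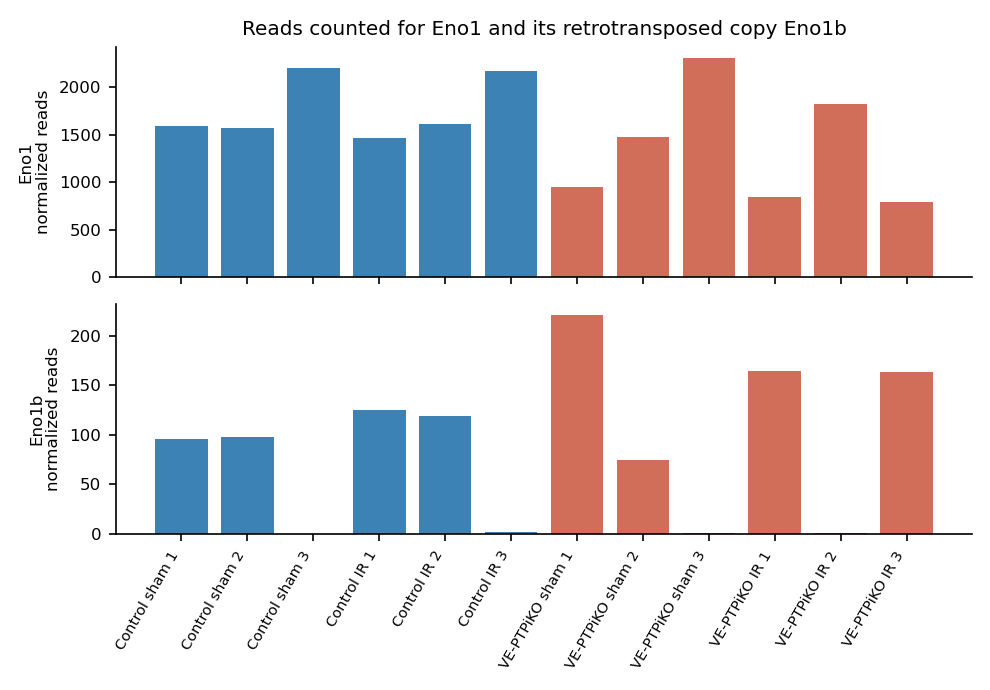
Normalized reads of Eno1 (upper bars) and Eno1b (lower bars) in each of the 12 libraries, in blue for Control and red for VE-PTPiKO, each on its own linear axis from 0. Libraries with Eno1b near 0 have Eno1 values between 1826 and 2308, and the 3 with Eno1b at 163 to 221 have Eno1 values of 790.1 to 953.

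Of the 3 genes of pyruvate and lactate handling, Pdk1 fell in Control. Pdk1 (chr2:71873224-71903858), a kinase that holds back entry of pyruvate into mitochondria and a known HIF target, stood at 934, 974 and 884 normalized reads with sham and 675, 711 and 688 with IR in Control, and 872, 917 and 958 with sham and 694, 813 and 654 with IR in VE-PTPiKO. Every IR library lay below every sham library in both genotypes. The log2 difference was -0.42 ± 0.10 (SE) in Control (adjusted p = 0.0236) and -0.35 ± 0.14 (SE) in VE-PTPiKO (adjusted p = 0.263). The Control call was lost without sham replicate 1 or any single IR library, with adjusted p up to 0.101. Ldha, which turns pyruvate into lactate, ranged from 7328 to 11192 normalized reads and was at -0.06 (95% interval -0.34 to 0.23) in Control and 0.07 (-0.33 to 0.48) in VE-PTPiKO. Slc16a3, the lactate exporter MCT4, was scarce at 32.6 to 74.7 normalized reads, with log2 differences of 0.19 and 0.36 (adjusted p = 0.79 and 0.514).

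The 9 other HIF targets split, with 2 higher and 2 lower in Control and 1 higher in VE-PTPiKO. Adm (chr7:110627661-110629820), which encodes the vasodilator adrenomedullin, stood at 333, 385 and 646 normalized reads with sham and 884, 1204 and 979 with IR in Control, and 324, 404 and 522 with sham and 941, 875 and 772 with IR in VE-PTPiKO. All IR libraries lay above all sham libraries. It rose 2.33-fold in Control (log2 1.22 ± 0.22 (SE), adjusted p = 0.00465), a call kept in all 17 alternatives, and 2.1-fold in VE-PTPiKO (log2 1.07 ± 0.19 (SE), adjusted p = 0.0197). The VE-PTPiKO call was lost without sham replicate 2, or without replicate 1 or 2 of its IR group, with adjusted p up to 0.0926.

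P4ha1 (chr10:59323296-59373304), a subunit of the enzyme that hydroxylates collagen, stood at 1347, 1256 and 1517 normalized reads with sham and 1688, 1746 and 2084 with IR in Control, and 1806, 1225 and 1352 with sham and 2012, 1814 and 1422 with IR in VE-PTPiKO. Groups separated in Control and overlap in VE-PTPiKO, with log2 differences of 0.42 ± 0.12 (SE) (adjusted p = 0.0449) and 0.27 (adjusted p = 0.575). Its Control call held in 10 of 17 alternatives and was lost on leaving out any single Control library other than sham replicate 3, with adjusted p up to 0.185. Its relative P4ha2 was at -0.17 and -0.08 (adjusted p = 0.602 and 0.865).

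Of the mitophagy receptors, Bnip3l was called in Control and Bnip3 was not. Bnip3l (chr14:66985239-67008877) stood at 1398, 1153 and 1394 normalized reads with sham and 991, 906 and 986 with IR in Control, and 1244, 1138 and 1270.1 with sham and 1067, 1189 and 839 with IR in VE-PTPiKO, and its groups separate in Control and overlap in VE-PTPiKO. It fell in Control (log2 -0.44 ± 0.11 (SE), adjusted p = 0.0296), while the VE-PTPiKO difference was -0.25 (adjusted p = 0.519). The call held in 11 of 17 alternatives and was lost without any single Control library other than sham replicate 2, with adjusted p up to 0.162. Bnip3 was at -0.43 (adjusted p = 0.161) and -0.19 (adjusted p = 0.686), with overlapping groups, and was called lower in Control without sham replicate 2 (adjusted p = 0.0423).

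Ndrg1, the most abundant member per length, stood at 74572, 62859 and 80963 normalized reads with sham and 46459.9, 53234 and 53431 with IR in Control, and 76973, 78247 and 85261 with sham and 55749.7, 58887 and 38167 with IR in VE-PTPiKO. Every IR library lay below every sham library in both genotypes, at log2 differences of -0.50 ± 0.16 (SE) (adjusted p = 0.0669) and -0.68 ± 0.21 (SE) (adjusted p = 0.157). DESeq2 called both lower (adjusted p = 0.00204 and 0.020), and limma called the Control difference without sham replicate 2 (adjusted p = 0.0297). Kdm3a, a histone demethylase, was at -0.10 and 0.08, and Ankrd37, at 8.7 to 36.2 normalized reads, at -0.24 and -0.34.

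Epo rested on few reads. In Control it had 7, 9 and 20 reads with sham and 3, 2 and 3 with IR, and in VE-PTPiKO 2, 11 and 26 with sham and 10, 2 and 2 with IR. The 36 sham reads of Control against 8 after IR give a ratio of 4.72 after scaling (95% exact interval 2.16 to 11.8, counting error only), and 39 against 14 in VE-PTPiKO give 2.41 (1.28 to 4.80). These intervals leave out the spread between libraries. In VE-PTPiKO the groups overlap, and limma did not call the difference (log2 -0.95, adjusted p = 0.681), nor did any alternative. In limma the Control difference passed (log2 -1.76 ± 0.51 (SE), adjusted p = 0.0469). It also passed in 7 of the 16 alternatives that gave a value, DESeq2 and the fit with a replicate block not among them (adjusted p = 0.0511 with the block). The call was lost on leaving out any single Control library other than sham replicate 2, with adjusted p up to 0.193 over the alternatives. Of Epo's 50-base words 6.8% also occur in Gnb2, a gene that its annotated model overlaps.

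The other 2 lists of the same pathways showed changes in both directions. Over all genes tested, 7.48% were called higher and 4.02% lower in Control, and 1.92% and 0.793% in VE-PTPiKO. Of 32 other hypoxia genes, 5 were higher and 6 lower in Control IR (median log2 -0.13), and 2 higher and 2 lower in VE-PTPiKO (median -0.13). Anxa2, an annexin, rose 2.99-fold and 2.88-fold (adjusted p = 8.39e-05 and 0.00479). Hilpda, a lipid droplet protein gene, rose in Control (log2 1.37, adjusted p = 0.00128) and was at 1.09 in VE-PTPiKO (adjusted p = 0.108). Lox, which cross-links collagen, fell in both (log2 -1.22 and -1.31, adjusted p = 0.00367 and 0.0199), as did Cited2, which restrains HIF (log2 -0.92 and -1.40, adjusted p = 0.00993 and 0.012). In VE-PTPiKO both calls were lost without sham replicate 2, sham replicate 3 or IR replicate 2, and that of Lox also without IR replicate 1, with adjusted p up to 0.13 for Lox and 0.0689 for Cited2. Ddit4, an inhibitor of mTOR signalling, fell in Control (log2 -0.97, adjusted p = 0.00558) and was at -0.68 in VE-PTPiKO (adjusted p = 0.169).

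Of 39 other glycolysis and pyruvate genes tested, 2 were higher and 7 lower in Control IR (median -0.13), and 1 higher and 3 lower in VE-PTPiKO (median -0.10). The shares over all genes were 7.48% higher and 4.02% lower in Control, and 1.92% and 0.793% in VE-PTPiKO. Pgm1, a phosphoglucomutase, rose 2.28-fold and 2.21-fold (adjusted p = 0.000243 and 0.00568). Eno2, a second enolase, stood at 12.4, 27.1 and 24.5 normalized reads with sham and 51.3, 72.9 and 59.6 with IR in Control, and 36.4, 63 and 14.5 with sham and 66.5, 101 and 77.4 with IR in VE-PTPiKO. It rose in Control (log2 1.54, adjusted p = 0.012), a call lost without Control IR replicate 2 (adjusted p = 0.0748). Pdp2, a phosphatase that activates pyruvate dehydrogenase, stood at 1982, 2410.4 and 1877 normalized reads with sham and 838, 831 and 862 with IR in Control, and 2159, 2425 and 2648 with sham and 910.0, 941 and 945 with IR in VE-PTPiKO. It fell in both (log2 -1.29 ± 0.12 (SE), adjusted p = 6.56e-05, and -1.36 ± 0.13 (SE), adjusted p = 0.00106). The kinase Pdk2, which opposes it, fell as well (log2 -0.89 and -0.99, adjusted p = 0.00112 and 0.00895), so that both an activator and an inhibitor of pyruvate dehydrogenase fell. Pdk4, a further kinase of that enzyme, fell in Control (log2 -0.89, adjusted p = 0.0408) with overlapping groups, a call lost in 8 of 17 alternatives. Gys1, glycogen synthase, fell in both (log2 -0.69 and -0.86, adjusted p = 0.00318 and 0.04). The VE-PTPiKO call of Gys1 was lost on leaving out any single library other than IR replicate 3, with adjusted p up to 0.221, and that of Pdk2 without sham replicate 3 or IR replicate 2, with adjusted p up to 0.0686.

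No member was called between the genotypes or in the difference of their responses to IR, and neither was the targeted gene Ptprb. In sham kidneys 0 of 37 members were called between VE-PTPiKO and Control, in IR kidneys 0, and in the interaction, which compares the responses, 0, beside 0.0% of 16339 genes in each. None had an unadjusted p under 0.05 in limma, DESeq2 or edgeR. By limma the share over all genes was 1.63% in sham, 4.34% in IR and 2.64% in the interaction. For 37 members a count of 0 is near these shares. Sham groups did not overlap for 1 member (Pfkm), against 4.87% of all genes, and IR groups for 2 (Gpi1 and Hk2), against 9.16%. The largest interaction of a called member was that of Hk2, whose response was -1.04 on the log2 scale in VE-PTPiKO relative to Control (95% interval -2.21 to 0.12). That of Slc2a1 was -0.32 (-0.82 to 0.19), of Adm -0.14 (-0.85 to 0.56) and of Hif1a -0.02 (-0.36 to 0.32). These intervals still hold differences of more than 2-fold for Hk2, so that calls made in Control and not in VE-PTPiKO are not shown to differ between the genotypes.

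Some markers of other cells moved with IR beside these genes. The 7 red blood cell genes summed to 1342 to 3415 normalized reads in Control sham and 6098 to 10758 in Control IR (4 of 6 tested genes higher), and to 1521 to 2674 and 2242 to 9958 in VE-PTPiKO (0 called). The 11 leukocyte genes summed to 1714 to 1926 and 2295 to 2571 in Control (Cd68 and Lyz2 higher) and to 1810 to 1884 and 2039 to 2402 in VE-PTPiKO (Cd68 higher). The 6 inner medulla and thin limb genes summed to 2256 to 3086 and 4008 to 6699 in Control, with Cldn4 and Slc14a1 higher and Slc14a2 lower, and to 2351 to 3100 and 2320 to 5180 in VE-PTPiKO, with Cldn4 higher. Their median log2 difference was only 0.02 in Control and 0.12 in VE-PTPiKO, so these sums do not describe the 6 genes as a set. The summed levels of 8 endothelial genes overlap between all groups, with Cdh5 higher in Control IR. The 10 proximal tubule genes summed to 380198 to 460014 in Control sham and 343213 to 360339 in Control IR, groups that do not overlap, and to 358178 to 463027 and 316944 to 379535 in VE-PTPiKO, which overlap; none of the 10 was called by limma. The part of these cells in the members' differences was not tested, and in whole kidney fewer cells of a type cannot be told apart from less RNA per cell.

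In the authors' deposited tables, 36 of the 37 members have an adjusted p, and Epo is the one without. Those tables list 6 members higher and 7 lower in Control at 0.05, and 4 higher and 2 lower in VE-PTPiKO. These are 36.1% and 16.7% of the 36, beside 21.1% of 13664 and 11.3% of 13732 genes with an adjusted p in the authors' deposited tables. By direction, the authors' deposited tables hold 12.5% of all genes as higher and 8.6% as lower in Control, and 6.42% and 4.88% in VE-PTPiKO. Of the limma calls in Control, the authors' deposited table holds all but Epo. It adds Pfkfb3 as higher and Pfkl, Bnip3, Ndrg1, Egln3 and Hif3a as lower. For VE-PTPiKO the authors' deposited table adds Hk2 and Hif1a as higher and Ndrg1 and Egln3 as lower.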

How the data were processed

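Members and gene lists were chosen with earlier results of these data known. Per the submitters' processing notes, reads were handled with FastQC, STAR, HTSeq and DESeq2 on mm10; versions, annotation and strand setting are not given in the sources used here. The deposited library columns are a normalized signal: each library's reads per gene over a single size factor, since 100.0% of values gave whole reads within 0.02. Deposited log2 fold changes and deposited adjusted p-values are the authors' own. Each table had 23493 lines, with 182 identifiers repeated with identical values. IR was compared with sham within each table by limma 3.58.1 (R 4.3.3) with a trend, using log2(value + 1) of genes whose mean was at least 1, with Benjamini-Hochberg adjusted p under 0.05. Fold changes are on that scale and understate low genes. Genotype contrasts and the interaction used recovered reads of 12 libraries, scaled by the median of ratios over 14828 genes. Printed normalized reads are on that scale, 0.992 to 1.01 times apart from the deposited one. DESeq2 1.42.0 and edgeR 4.0.16 on recovered reads were alternatives. Tests were checked on simulated data. Named by rule: all members, with values per library for those called and for HIF subunits, Egln genes and Vhl; up to 6 genes per further list by size among called ones, 1 of which is not reported here; Ptprb and Malat1. Values of Ndrg1, Gapdh and Eno1b were added after they were seen. Printed values per library of Eno1, Eno2 and Pdp2 also lie outside that rule. Exon lengths, gene positions and shared 50-base words came from GENCODE (GRCm38).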

Additional observations from a re-analysis of the deposited data

How the results depend on the processing

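Of the 5 members higher and 3 lower in Control, and the 2 higher and 0 lower in VE-PTPiKO, no called value changed sign under any alternative. Each of these counts moved by over 1.5 times, or from or to 0, under at least 1 alternative. Members lower in Control were 5 with DESeq2, 5 after a correction for transcript length and 1 in one model of all 12 libraries. Without the libraries of highest Malat1 share, in Control only sham replicate 2, 6 were lower. That setting repeats the Control fit without sham replicate 2, so this fit is counted again among the Control alternatives. In VE-PTPiKO DESeq2 gave 4 higher and 2 lower, and one model 2 lower. Leaving out VE-PTPiKO sham replicate 2 and IR replicate 3, its libraries of highest Malat1 share, gave 1 lower. Leaving out each library in turn gave 3 to 6 higher and 0 to 6 lower in Control, and 0 to 3 higher and 0 to 2 lower in VE-PTPiKO; fewer libraries leave fewer degrees of freedom, and other causes were not tested. The lowest count of higher members in Control, 3, came without IR replicate 2 or 3, and 0 lower members without sham replicate 1 or any IR replicate. In VE-PTPiKO 0 higher members came without sham replicate 2, or without replicate 1 or 2 of the IR group. Over all genes the Control calls ran from 862 to 2010 and the VE-PTPiKO calls from 126 to 1925 when a library was left out, and from 1561 to 2218 and 426 to 1019 under the other settings. With a replicate block the members' counts were again 5 and 3 in Control and 2 and 0 in VE-PTPiKO, but in Control Epo was lost (adjusted p = 0.0511) and Hif3a gained (0.0206). Correlations of same-numbered deviations ran from -0.253 to 0.301, and those of differently numbered ones from -0.397 to 0.465. With 3 libraries per group, these correlations cannot decide whether equal numbers mark matched libraries. Genotype contrasts and the interaction called 0 members in every setting. Among members without a call, 13 of 29 differences in Control and 9 of 35 in VE-PTPiKO changed sign under at least 1 alternative. Epo, Hk2, Slc2a3, Ankrd37 and Slc16a3 rest on few reads, which limits their precision.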
